A study of Mus musculus with 5 samples.

Results

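The proneural bHLH genes are 9 transcription factor genes of the Neurogenin (Neurog1, Neurog2, Neurog3), NeuroD (Neurod1, Neurod2, Neurod4, Neurod6) and Atonal homologue (Atoh1, Atoh7) families. They were taken by name from the mouse mm9 GENCODE annotation, where all 9 were found among 22350 protein-coding genes. Their start sites and gene bodies were set against H3K27me3 peaks from mouse embryonic fibroblasts (MEFs), measured by chromatin immunoprecipitation and sequencing (ChIP-Seq). The peaks came from 3 MEF lines that all derived from an embryo with floxed Eed, a gene for a subunit of Polycomb Repressive Complex 2 (PRC2). Cre treatment is described for the EED deletion line alone. Each line was transduced with a lentivirus, by the study's methods with the transgene under the EF1a promoter. The first expressed H3.3K27R, a histone H3.3 with arginine in place of lysine 27, and served as the reference. The second expressed H3.3K27M, the methionine mutant of diffuse midline glioma. The third expressed human EZHIP, the PRC2-inhibiting protein of PFA ependymoma. There was 1 library per line, so no difference could be set against replicate spread, and all values describe these libraries. Parental floxed cells and the deletion line, which is 1 clone, were not analysed here.

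Proneural factors are basic helix-loop-helix (bHLH) proteins that pair with widely expressed E proteins, bind E boxes in DNA and drive progenitors toward a neuronal fate. Neurogenins and Atoh factors act mostly when a progenitor commits, and NeuroD factors act mostly in the neurons that follow. Notch signalling restrains them through Hes and Hey repressors. In cells of other lineages these genes are classical targets of PRC2, which trimethylates H3K27 and often works from CpG islands, stretches of DNA rich in the CG dinucleotide.

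The lists held positions only, with no height, score or p-value, so depth was unknown. They contained 12845 peaks in K27R, 3736 in K27M and 4992 in EZHIP. The shortest gap between neighbouring peaks was 5.2 kb in K27M and 1.2 kb in EZHIP, while some K27R peaks abutted, so that a stretch of the mark could be split more finely in EZHIP than in K27M. These gaps are shorter than the maximum gap that the methods name for the caller, so the settings behind each list are not certain. The fibroblast label was set against 10 genes of mesenchymal matrix and lineage, the first of them Col1a1. None of their 10 start sites lay in a peak of any list, and the nearest peak was 17.6 kb away in K27R. As 69.9% of all protein-coding genes lay outside K27R peaks too, this does not identify the cells.

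The stretch of DNA just before each start site is shown for 3 genes that kept H3K27me3 over the start site in both inhibitor lists (Neurog1, Neurog2 and Atoh1) and for the pair that kept it in neither (Neurod4 and Neurod6). Sequences are the 250 bases before the RefSeq start, 5′ to 3′ on the strand of the gene, and were found in mm9 by exact match of the RefSeq sequence (RefSeq table of GRCm38.p6). CG dinucleotides are in capitals. The positions are chr13:56353542-56353791 (minus strand) for Neurog1, chr3:127335804-127336053 (plus) for Neurog2, chr6:64678869-64679118 (plus) for Atoh1, chr10:129717311-129717560 (minus) for Neurod4 and chr6:55631258-55631507 (minus) for Neurod6. The last sequence is the CpG island nearest to the Neurod6 start, at chr6:55626986-55627207, printed on the minus strand and shown because it is the only island of that region.
Neurog1: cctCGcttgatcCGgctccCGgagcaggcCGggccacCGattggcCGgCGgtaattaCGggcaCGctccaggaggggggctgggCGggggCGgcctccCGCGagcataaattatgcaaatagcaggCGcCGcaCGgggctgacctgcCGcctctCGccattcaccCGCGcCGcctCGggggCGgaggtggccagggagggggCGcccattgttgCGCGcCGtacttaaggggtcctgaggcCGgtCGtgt
Neurog2: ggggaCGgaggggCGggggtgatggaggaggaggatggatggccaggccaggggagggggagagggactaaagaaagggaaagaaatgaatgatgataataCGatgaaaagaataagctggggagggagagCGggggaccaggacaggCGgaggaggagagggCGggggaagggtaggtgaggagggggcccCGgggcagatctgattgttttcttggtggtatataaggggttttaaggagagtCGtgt
Atoh1: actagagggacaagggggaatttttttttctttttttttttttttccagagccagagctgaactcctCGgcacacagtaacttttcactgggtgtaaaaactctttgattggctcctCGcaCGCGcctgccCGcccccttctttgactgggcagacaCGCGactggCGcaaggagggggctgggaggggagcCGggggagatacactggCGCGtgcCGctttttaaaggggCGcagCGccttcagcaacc
Neurod4: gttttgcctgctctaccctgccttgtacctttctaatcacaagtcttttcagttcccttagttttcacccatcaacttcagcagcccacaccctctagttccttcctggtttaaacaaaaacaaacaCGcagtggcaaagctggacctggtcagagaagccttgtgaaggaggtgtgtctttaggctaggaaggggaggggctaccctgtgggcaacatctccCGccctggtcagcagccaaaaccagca
Neurod6: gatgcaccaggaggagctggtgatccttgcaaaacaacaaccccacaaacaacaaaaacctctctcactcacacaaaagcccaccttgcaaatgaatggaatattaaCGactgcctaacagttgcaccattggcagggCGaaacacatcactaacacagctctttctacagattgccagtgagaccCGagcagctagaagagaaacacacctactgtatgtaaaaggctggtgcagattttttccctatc
Neurod6 island: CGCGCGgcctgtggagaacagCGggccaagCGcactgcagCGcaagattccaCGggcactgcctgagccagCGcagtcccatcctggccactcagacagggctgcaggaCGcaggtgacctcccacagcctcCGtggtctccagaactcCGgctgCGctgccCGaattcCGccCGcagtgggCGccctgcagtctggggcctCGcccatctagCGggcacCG

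These windows held 29 CG in Neurog1, 14 in Atoh1 and 8 in Neurog2, against 2 in Neurod4 and 3 in Neurod6. Over 32851 RefSeq promoters the median was 6 CG, with quartiles of 2 and 16. Of the members not printed, Neurod1 had 22, Neurog3 18, Neurod2 11 and Atoh7 9. RefSeq gives Neurod4 another start, 102 bp from the annotated one, with 7 CG before it, and this count lay next to the 8 of Neurog2, so that the windows of genes with and without a residual peak were close at this end. The island of 222 bp near Neurod6 held 19 CG. E boxes, to which the proteins themselves bind, were searched as CANNTG on both strands. They occurred in the windows of 5 of 9 members, where 66.2% of all RefSeq windows held at least 1. The forms CAGCTG and CAGATG, both contained in CANNTG, occurred in 1 and 2 members, against 13.0% and 14.4% of all windows.

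In K27R cells every proneural start site was marked. All 9 start sites, each on an autosome, lay in a K27R peak, where 30.1% of all protein-coding genes and 28.2% of autosomal ones did. The peaks over them spanned 26.2 to 364.2 kb with a median of 106.0 kb, and the median over all 6735 genes with a start site in a K27R peak was 96.8 kb. In K27M cells 7 of 9 start sites remained in a peak, where 9.02% of all genes and 29.9% of those with a K27R start site did. In EZHIP cells 7 of 9 did as well, against 7.73% of all genes and 25.6% of those with a K27R start site. The same 7 genes were kept in both lists, namely Neurog1, Neurog2, Neurog3, Neurod1, Neurod2, Atoh1 and Atoh7, against 6.6% of all genes and 21.9% of the genes with a K27R start site. Neurod4 and Neurod6 had a start site in K27R peaks only, as did 66.5% of the genes with a K27R start site.

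**Figure D1:**
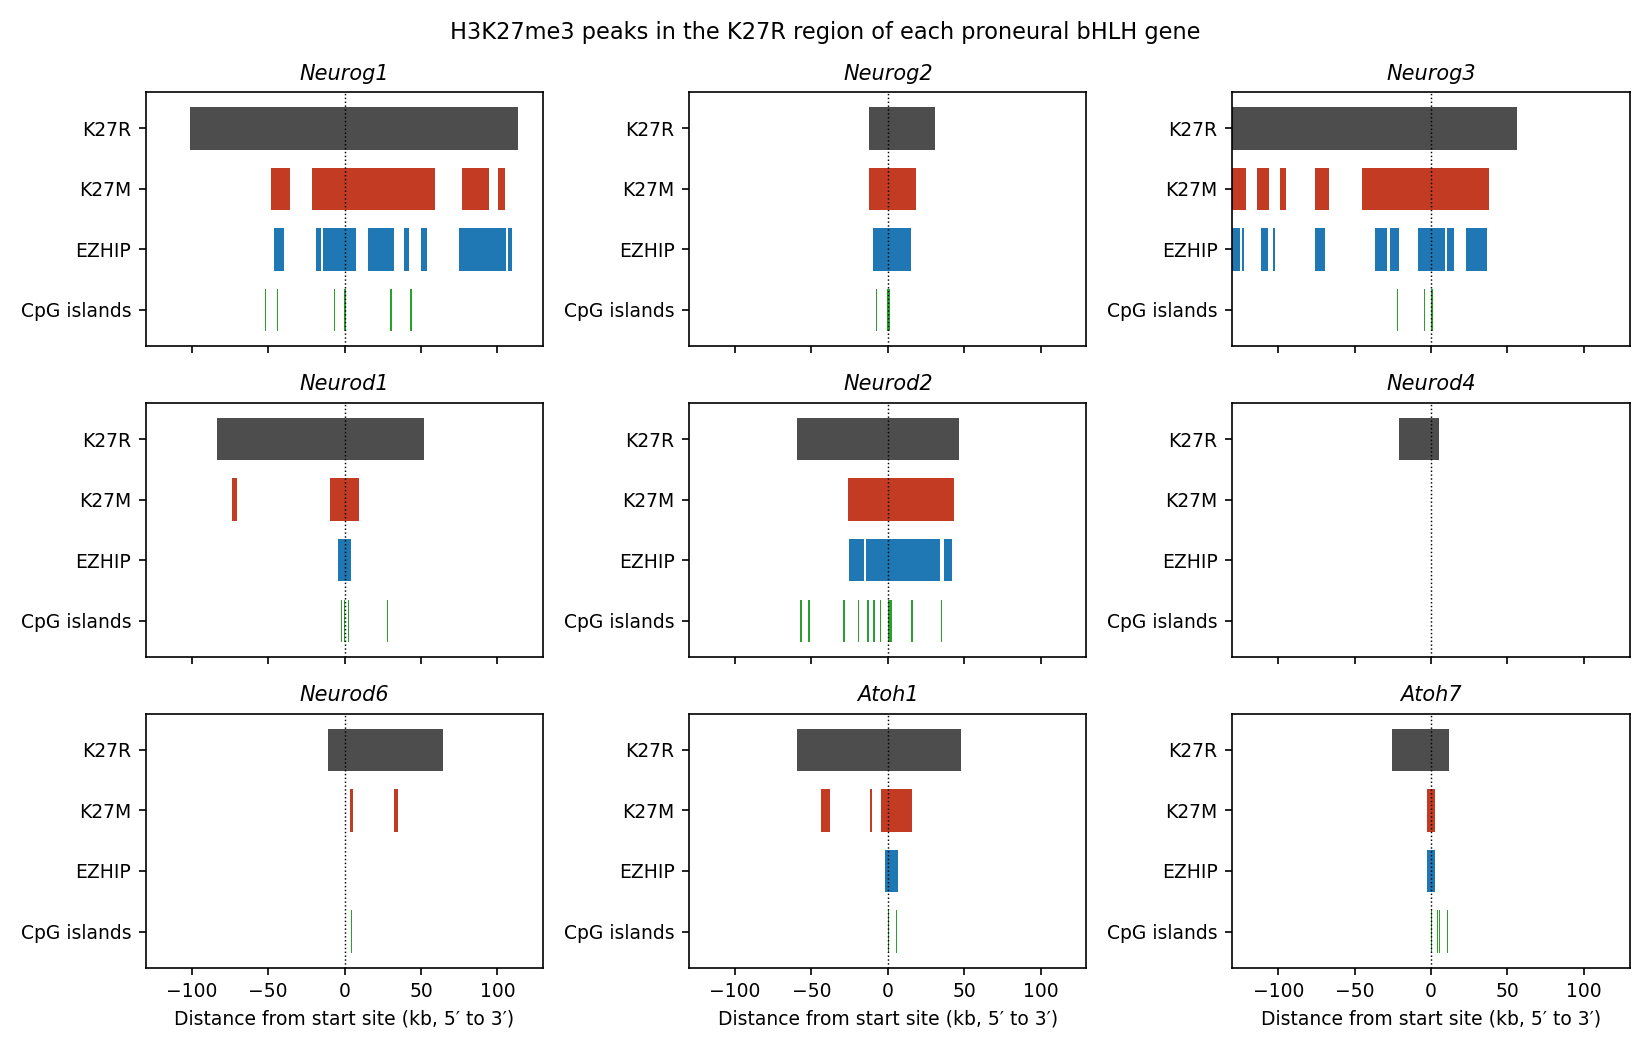
H3K27me3 peaks (bars) of the K27R, K27M and EZHIP lists inside the K27R region that holds each start site, and the CpG islands in it (green, drawn at least 0.8 kb wide), by distance from the start site in kb along the gene's strand (dotted line: start site). 7 genes kept a peak over the start site in K27M and EZHIP, Neurod4 kept none in its region and Neurod6 kept small K27M peaks beside the gene; the Neurog3 region runs beyond the left edge.

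The gene bodies followed the start sites. These genes are short, from 0.45 kb in Atoh7 to 12.1 kb in Neurod4, and those of 8 members lay wholly in K27R peaks, where 20.1% of all genes did. That share is 4486 genes, against 6735 with a K27R start site. For short genes with the start in a wide peak, full cover adds little to the start site result. The exception among the members was Neurod4, of which 43.8% was covered. Its K27R peak held the first exon of 84 bp and ended in the intron, so that none of the 3260 bp of exon 2, which holds all of the coding sequence, lay in a peak. In K27M and in EZHIP the 7 genes with a marked start site were covered over their full length, and Neurod4 and Neurod6 had 0 bp covered. Thus no gene body was covered in part in an inhibitor list.

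Among the Neurogenins, Neurog1 helps to specify cranial sensory neurons. The gene lies on chromosome 13 from 56351866 to 56353524 (ENSMUSG00000048904.4, minus strand), and its K27R peak spanned 215.0 kb. The peak over the start site spanned 80.6 kb in K27M and 21.6 kb in EZHIP, 2.67 and 9.95 times narrower than in K27R. Beyond it, EZHIP had 7 more peaks in the K27R region and K27M had 3 more. After peaks up to 10 kb apart were joined in every list, the peak over Neurog1 spanned 72.2 kb in EZHIP and remained 80.6 kb in K27M, so the 3.73-fold difference in width between the inhibitors nearly closed. Over the whole K27R region, peaks covered 54.1% in K27M and 41.0% in EZHIP. Of the EZHIP length in this region, 88.9% lay in K27M peaks.

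Neurog2, which promotes neurogenesis in the dorsal telencephalon and elsewhere, had the narrowest K27R peak of the Neurogenins. Its gene body lies on chromosome 3 from 127336054 to 127338549 (ENSMUSG00000027967.7, plus strand). The K27R peak was 43.2 kb wide, and each inhibitor list held a single peak within it, of 30.4 kb (K27M) and 24.4 kb (EZHIP). The K27M peak began at the same 200 bp bin as the K27R peak, 12.1 kb upstream of the start site, and stopped 18.3 kb downstream where K27R reached 31.1 kb. Residual peaks thus covered 70.4% of the region in K27M and 56.5% in EZHIP. No other protein-coding start site lay in the region.

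Neurog3, which is required for the endocrine cells of the pancreas, lay in the widest K27R peak of the 9 genes, 364.2 kb long. Annotated on chromosome 10 from 61595838 to 61597511 (ENSMUSG00000044312.3, plus strand), it had a K27M peak of 83.2 kb and an EZHIP peak of 17.4 kb over the start site, the latter 20.9 times narrower than in K27R. Across the region K27M had 10 peaks with a summed length of 202.6 kb and EZHIP 15 with 98.2 kb, or 55.6% and 27% of its length. Joining of peaks up to 10 kb apart widened the EZHIP peak over Neurog3 to 44.6 kb, still narrower than the 83.2 kb of K27M. Of the EZHIP length, 98.6% lay within K27M peaks. The K27M peak also held the start site of 2010107G23Rik, which in EZHIP had a separate peak of 4.0 kb.

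Of the NeuroD genes, Neurod1, which acts in neurons and in pancreatic beta cells, kept a short stretch around the start site. The annotation places it on chromosome 2 from 79292678 to 79296908 (ENSMUSG00000034701.8, minus strand). A K27R peak of 135.4 kb was reduced to 19.4 kb in K27M and 8.4 kb in EZHIP. Both residual peaks were nearly symmetric about the start site, reaching 9.69 kb upstream and 9.71 kb downstream in K27M and 4.09 kb and 4.31 kb in EZHIP. They covered the start site of Cerkl as well, which lies 34 bp upstream. A further K27M peak of 3.4 kb lay about 70.1 kb upstream, where EZHIP had none.

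Neurod2, a factor of cortical and cerebellar neurons, had the highest share of its K27R region covered in EZHIP. The gene lies on chromosome 11 from 98186729 to 98190962 (ENSMUSG00000038255.6, minus strand). A K27R peak of 106.0 kb held a K27M peak of 69.6 kb and, over the start site, an EZHIP peak of 48.8 kb, and residual peaks covered 65.7% of the region in K27M and 60.4% in EZHIP. All of the EZHIP length lay in the K27M peak, and 92.0% of the K27M peak was also marked in EZHIP. The K27R region held 4 other start sites, which are named here after their values were seen. Ppp1r1b, a signalling inhibitor of striatal neurons 18.8 kb upstream, was kept in both lists, whereas Stard3, Tcap and Pnmt, 28.7 to 56.8 kb upstream, were marked in K27R alone. The edges of the K27M mark (26.0 kb upstream) and of the EZHIP mark (25.6 kb upstream) both fell between Ppp1r1b and Stard3.

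Neurod4, which is expressed in neuronal precursors of the retina and brain, lost its peak in both lists and had the least marked locus in K27R. Its body lies on chromosome 10 from 129705209 to 129717296 (ENSMUSG00000048015.3, minus strand). The K27R peak of 26.2 kb, the narrowest of the 9, reached 20.9 kb upstream and 5.30 kb downstream of the start site. The nearest residual peak was 2379.3 kb away in K27M and 2292.7 kb away in EZHIP. No CpG island lay within 132.0 kb, and the neighbouring genes with a start site within 100 kb, looked up after the values were seen, were Olfr826, Olfr827 and 5830405N20Rik, all outside K27R peaks.

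Neurod6, a factor of cortical projection neurons, also lost the mark over its start site, but not from a narrow region. The annotation places it on chromosome 6 from 55627812 to 55631257 (ENSMUSG00000037984.8, minus strand). Its K27R peak spanned 75.4 kb, wider than those of Neurog2 and Atoh7, which were kept. K27M retained 2 small peaks in this region, of 2.0 kb and 2.2 kb, at 3.66 to 5.66 kb and 32.5 to 34.7 kb downstream of the start site. The first lay just past the 3′ end of the gene and held the CpG island of 222 bp printed above. EZHIP had no peak there, and its nearest one was 227.5 kb away. With a distance of 5 kb allowed between start site and peak, Neurod6 would count as kept in K27M (8 of 9 members) and not in EZHIP.

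Of the Atoh genes, Atoh1, which specifies cerebellar granule neurons and hair cells of the inner ear, kept peaks close in width to those of Neurod1. It lies on chromosome 6 from 64679140 to 64681227 (ENSMUSG00000073043.4, plus strand). A K27R peak of 107.2 kb left 19.8 kb in K27M and 8.6 kb in EZHIP over the start site. These peaks lay mostly 3′ of the start, reaching 15.7 kb downstream and 4.14 kb upstream in K27M, and 6.46 kb and 2.14 kb in EZHIP. K27M had 2 more peaks upstream, of 1.4 kb and 6.2 kb, where EZHIP had no peak.

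Atoh7, which is required for retinal ganglion cells, had the narrowest residual peaks and was the only member with a wider peak in EZHIP than in K27M. It lies on chromosome 10 from 62562904 to 62563353 (ENSMUSG00000036816.3, plus strand), an annotation of 450 bp that holds the coding sequence only, and the RefSeq start lies 371 bp further upstream. The K27R peak of 36.8 kb held a K27M peak of 5.0 kb and an EZHIP peak of 5.6 kb. The K27M peak reached 2.70 kb upstream and 2.30 kb downstream of the start site and the EZHIP peak 2.90 kb and 2.70 kb, so that their order rests on 3 bins of 200 bp in 1 library each. The RefSeq start lay in the same peaks.

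**Figure D2:**
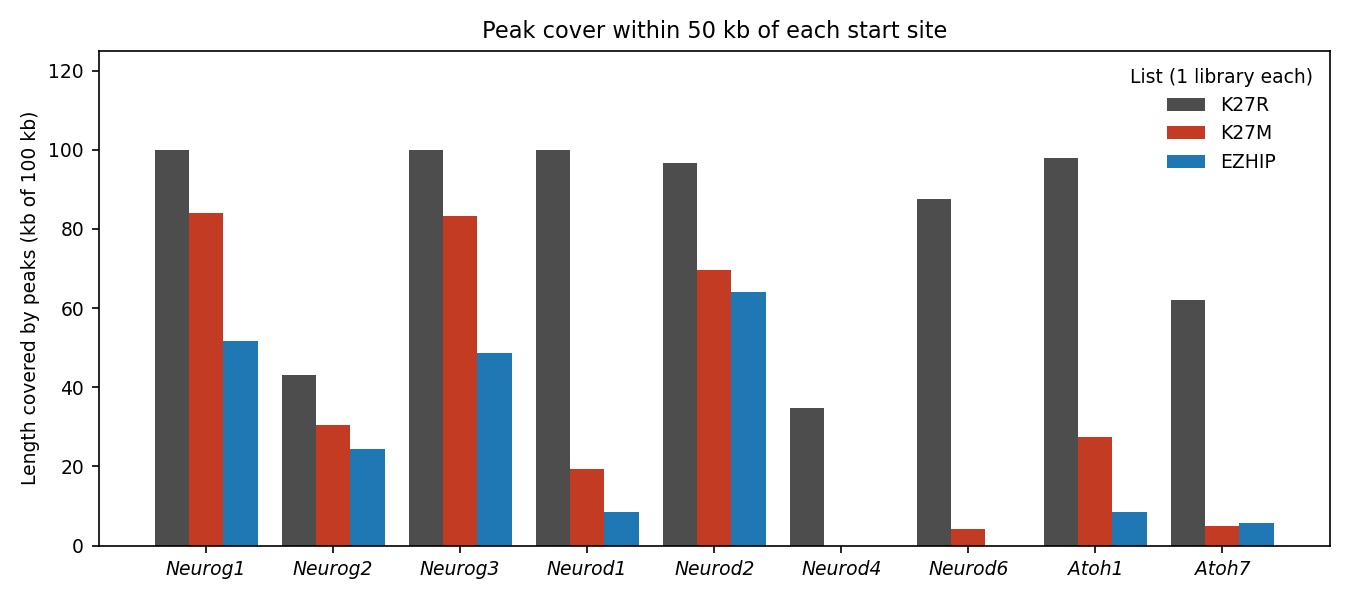
Length covered by peaks within 50 kb on each side of the start site (kb) for the 9 genes in the K27R, K27M and EZHIP lists, 1 library each, so that there are no error bars. Cover was highest in K27R at every gene and higher in K27M than in EZHIP at 7 of 9, with Atoh7 (5.0 against 5.6 kb) in the opposite order and Neurod4 at 0 in both.

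Cover of the surroundings was then compared, since single widths end where a peak was divided. Gaps between peaks count as uncovered, so cover too depends in part on the division, and joining peaks up to 10 kb apart moved the median of K27M from 27.4 to 30.4 kb and left that of EZHIP at 8.6 kb. Within 50 kb on each side of the start site (a window of 100.001 kb), K27R peaks covered a median of 96.6 kb of the 9 loci, from 34.7 kb at Neurod4 to the whole window at Neurog1, Neurog3 and Neurod1. The median was 71.6 kb over all genes with a K27R start site. As deposited, K27M peaks covered a median of 27.4 kb (1.47 kb over the same genes), with 0 kb at Neurod4, 4.2 kb at Neurod6, 5.0 kb at Atoh7 and 84.1 kb at Neurog1. EZHIP peaks covered a median of 8.6 kb (1.2 kb over the same genes), from 0 kb at Neurod4 and Neurod6 to 64.0 kb at Neurod2. The EZHIP median depended on the summary, since the mean was 23.5 kb and the median over the 7 kept genes, a choice made after the values were seen, was 24.4 kb. For comparison with genes of the same fate, the 1476 genes kept in both lists had medians of 17.2 kb in K27M and 13.2 kb in EZHIP, against 30.4 kb and 24.4 kb for the 7 members.

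By this measure the kept genes differed widely. Neurog1, Neurog3 and Neurod2 retained 69.6 to 84.1 kb in K27M and 48.6 to 64.0 kb in EZHIP. Neurog2 retained 30.4 and 24.4 kb of a smaller K27R cover of 43.2 kb. Neurod1 and Atoh1 had K27R cover near that of the first group (100.001 and 97.9 kb) and yet retained 19.4 and 27.4 kb in K27M and 8.4 and 8.6 kb in EZHIP. Atoh7 was the lowest of the kept genes, with 5.0 and 5.6 kb of a K27R cover of 62.1 kb. Members that shared a chromosome (Neurog3, Atoh7 and Neurod4 on 10, and Neurod6 and Atoh1 on 6) lay in separate K27R peaks and counted as separate loci.

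The inhibitors were next compared peak by peak. Over the 7 kept start sites the K27M peak was wider than the EZHIP peak in 6, where this held for 78.7% of the 1476 genes kept in both lists. The ratio of K27M to EZHIP width ranged from 0.893 at Atoh7 to 4.78 at Neurog3 with a median of 2.30, against a median of 1.42 over the 1476 genes. It depended on how the lists were divided, since with peaks up to 10 kb apart joined in every list, an alternative added after the values were seen, the median was 1.25 over the 7 genes and 1.21 over 1516 genes in all 3 lists. The joined K27M peak remained the wider one in 6 of 7 members, against 68.4% of these genes. As deposited, the EZHIP peak lay wholly inside the K27M peak at these same 6 genes, and the K27M peak lay wholly inside the K27R peak at all 7. Relative to K27R, peaks over the 7 start sites were narrower by a median of 4.38-fold in K27M and 9.95-fold in EZHIP, against 7.52-fold and 11.3-fold over the 1476 genes. The smallest change was 1.42-fold in K27M and 1.77-fold in EZHIP, both at Neurog2. Joining of peaks up to 10 kb apart raised the median EZHIP width over the kept start sites from 17.4 to 24.4 kb and left that of K27M at 30.4 kb.

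Members kept in both lists and members cleared in both (marked in K27R only) differed in their CpG islands. The annotated start sites of 7 members lay in an island (46.0% of all genes and 35.3% of those with a K27R start site did), and these were the 7 kept genes. For Atoh7 this rests on the annotation. Its island begins 60 bp upstream of the annotated start, so the RefSeq start, 371 bp upstream, lies outside it. The islands over the annotated starts of the kept genes were 212 bp (Neurod2) to 2111 bp (Neurog2) long. This match depends on the length limit for islands. With islands of at least 500 bp only, the starts of Neurog1, Neurog2 and Atoh1 would still lie in one. Those of Neurog3 (416 bp), Neurod1 (423 bp), Neurod2 and Atoh7 (403 bp) would not. Neurod6 had its nearest island 4.05 kb from the start and Neurod4 132.0 kb. Among all 2376 genes with the start site in a K27R peak and in an island, a K27M peak held the start in 52.1%, an EZHIP peak in 44.0% and both in 39.5%. Among 369 genes with an island at 1 to 5 kb, the class of Neurod6, the shares were 31.4% and 24.4%. Among 2311 genes with an island more than 20 kb away, the class of Neurod4, they were 7.66% and 6.97%. A start site marked in K27R alone was found in 79.0% of the K27R genes outside islands, as at Neurod4 and Neurod6, and in 89.6% of those more than 20 kb from one. Of the 1476 genes kept in both lists, 938 had the start site in an island, against 35.3% of the genes with a K27R start site. An island at the start site was not followed by the mark in every gene, as 43.4% of island genes with a K27R start site were cleared in both.

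**Figure D3:**
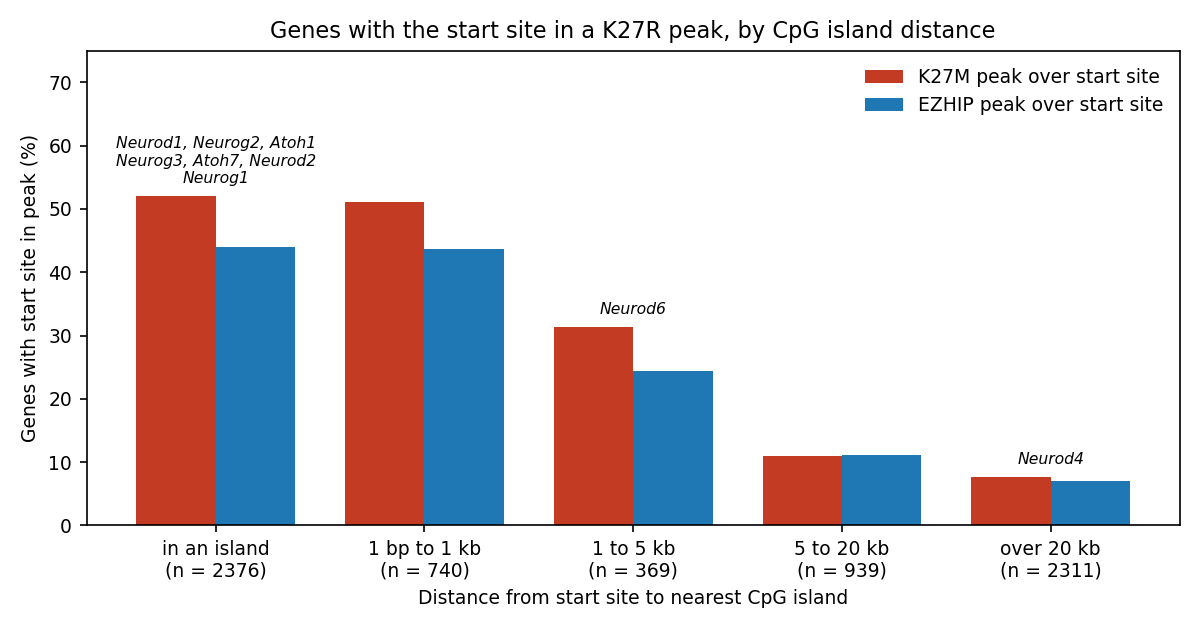
Percent of genes with the start site in a K27R peak that also had it in a K27M or an EZHIP peak, by the distance from the start site to the nearest CpG island (n, genes in the class; names, members in the class). The share fell from 52.1% (K27M) and 44.0% (EZHIP) with the start in an island to 7.66% and 6.97% beyond 20 kb; the 7 named genes of the first class were kept in both lists, and Neurod6 and Neurod4 were not.

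All 35 islands inside the K27R regions of the 9 genes were then followed. A K27M peak overlapped 27 of them, where 45.2% of the 6822 islands in K27R peaks were overlapped. An EZHIP peak overlapped 24, against 38.2% of all, and each of these 24 also met a K27M peak. All 12 islands of at least 500 bp were overlapped in both lists, against 58.7% and 50.4% of the 3219 islands of that size. Most overlapped islands lay in the peaks over the 7 kept start sites, with 8 in the K27M peak over Neurod2 alone. The island counts are thus not independent of the start site counts above. The 3 islands with a K27M peak and no EZHIP peak were those of 222 bp near Neurod6, 335 bp at 43.1 kb downstream of Neurog1 and 424 bp at 34.7 kb downstream of Neurod2. At Atoh7, 3 islands of 215 to 428 bp lay 3.80 to 10.8 kb downstream of the start site, beyond the end of both residual peaks (2.30 and 2.70 kb), and were marked in K27R only. Across the 9 genes, island length within 10 kb of the start site and cover within 50 kb gave a Spearman rho of 0.75 (Pearson's r 0.57) in K27M and 0.86 (r 0.69) in EZHIP. Over 6041 autosomal genes with a K27R start site the values were 0.44 (r 0.36) and 0.34 (r 0.28). These are descriptions across genes, which share the libraries and differ in base composition, and genes are not independent replicates. Among the 9, the 2 cleared genes had the least island length (0 bp at Neurod4, 222 bp at Neurod6) and the lowest cover, which raises rho. No value was computed over the kept genes alone.

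Other genes of the pathway were taken from lists and, unless stated otherwise, named as the first gene of each outcome in list order. Of 14 other neural bHLH genes in the annotation, 9 had a start site in all 3 lists. Over all protein-coding genes this share was 6.6%, and over those with a K27R start site 21.9%. Of the latter, 66.5% were marked in K27R alone. Nhlh1 was the only gene of this list marked in K27R alone, and like Neurod6 it had no island at the start (the nearest at 3.33 kb) and a K27M peak close by, 0.704 kb away. Unlike Neurod6, whose nearest EZHIP peak was 227.5 kb away, it also had an EZHIP peak at 2.10 kb. The remaining 4, Ascl2 among them, lay outside K27R peaks, as did 69.9% of all protein-coding genes. E proteins are the partners of proneural proteins, and Id proteins are their antagonists. Of these 7 genes, 6 lay outside K27R peaks, among them Tcf4, where 69.9% of all protein-coding genes did, and Tcf3 was marked in K27R only. No start site of these 7 lay in a residual peak, against 9.02% of all genes in K27M and 7.73% in EZHIP.

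The lists of Notch pathway genes and neuronal genes are given beside the shares of all genes, of which 6.6% were kept in both lists and 69.9% lay outside K27R peaks. Of 9 Hes and Hey genes, 3 were kept in both lists, including Hes2 with a peak of 22 kb in K27M and 5.8 kb in EZHIP. Hey1 was kept in K27M only (5.8 kb), and 2 including Hey2 were marked in K27R only. The Hey2 start lay 0.194 kb from a K27M peak, less than a bin of 200 bp, and 1692.8 kb from an EZHIP peak. Another 3 genes including Hes1, the main Notch effector of many cell types, lay outside K27R peaks. Of 9 ligands and receptors, 4 were kept in both lists, all of them ligands, with Dll1 under peaks of 28.2 kb and 27.2 kb. Another 2, Notch3 the first of them, were marked in K27R only, and 3 including Jag1 lay outside K27R peaks. The Notch3 start had a K27M peak 0.825 kb away and an EZHIP peak 3.025 kb away. Of 17 neuronal genes acting downstream of proneural factors, 6 were kept in both lists. Insm1, a zinc finger factor of neuroendocrine precursors, had peaks of 36.0 kb and 15.2 kb. Another 4, the first of them Elavl4 with a K27M peak of 1.2 kb, were kept in K27M only and none in EZHIP only. The nearest EZHIP peak was 355.3 kb away at Elavl4 and 126.9 kb at Eomes, but 1.19 kb at Cbfa2t3 and 1.41 kb at Tbr1. Eomes, Cbfa2t3 and Tbr1 were named after their values were seen. A further 2 were marked in K27R only, including Dcx, which lies on chromosome X in a K27R peak of 845.6 kb. The remaining 5, including Gadd45g, lay outside K27R peaks. Of all 6735 genes with a K27R start site, 535 were kept in K27M only and 248 in EZHIP only.

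**Figure D4:**
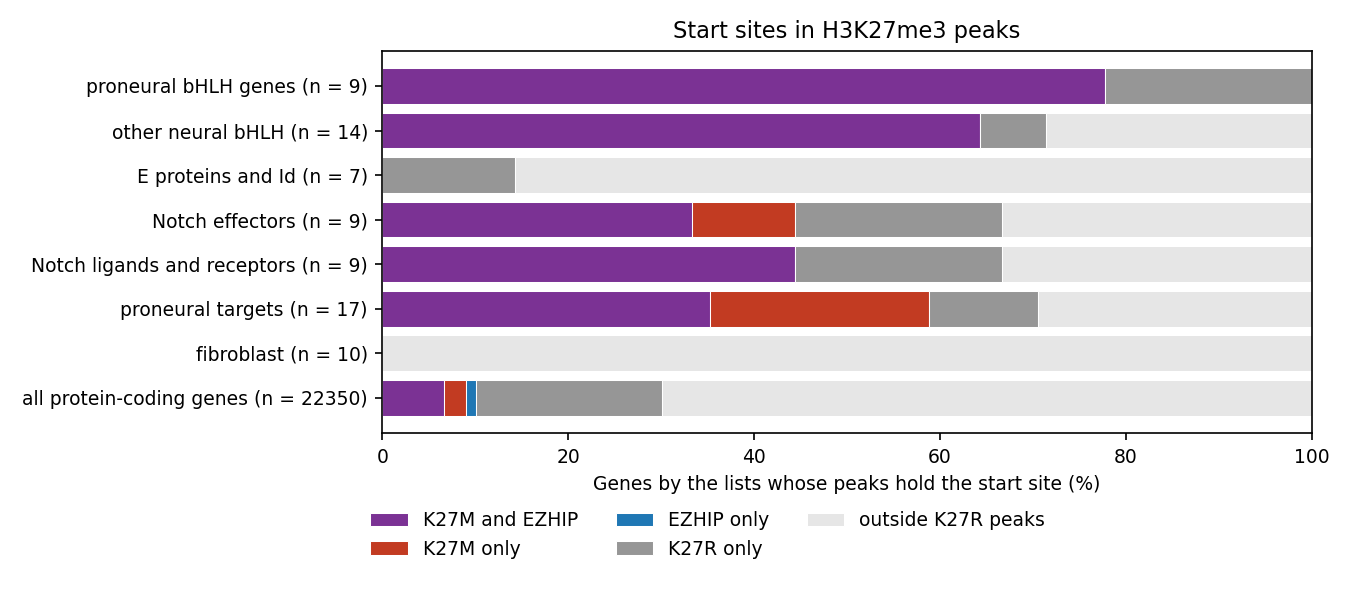
Share of genes (%) in each list by which peaks hold the start site: K27M and EZHIP, K27M only, EZHIP only, K27R only, or outside K27R peaks (n, genes in the annotation). Of the 9 proneural bHLH genes 7 were kept in both lists and 2 were marked in K27R only. None of the 10 fibroblast genes was in a K27R peak, and 69.9% of all protein-coding genes lay outside K27R peaks too.

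For each member, the autosomal gene at least 1 Mb away with the most alike cover was found, as the smallest Euclidean distance between covered lengths within 50 kb over the 3 lists. For Neurog3 it was Six3, a homeobox gene of the eye and forebrain, with 100.001, 81.8 and 47.8 kb in K27R, K27M and EZHIP (distance 1.61 kb). Neurod2 was nearest to Zic4 (96.5, 67.7 and 63.0 kb, distance 2.19 kb), and Neurod1 to Npy (distance 0.721 kb), a neuropeptide gene. The genes nearest to the others were Srcin1 for Neurog1, Chic2 for Neurog2, Lonrf2 for Atoh1 and Susd5 for Atoh7, at distances of 0.666 to 2.58 kb. The cleared genes were nearest to Gm9396 (Neurod4, 0.025 kb) and Gm11147 (Neurod6, 0.825 kb).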

How the data were processed

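H3K27me3 ChIP-Seq peak lists of MEFs expressing H3.3 K27R, H3.3 K27M or human EZHIP were used, with groups taken from the sample titles (1 library each). By the study's methods, the authors aligned reads with bowtie1 (Bowtie 1.0.0 in the submitters' processing notes) to mm9 and to a spike-in genome and called broad peaks with MOSAiCS-HMM. Whether spike-in scaling entered the calls is not given in the sources used here. The deposited lists hold start and end positions on a 200 bp grid and no values, so depth is unknown and no test was run. Shares are over all genes of the annotation unless another set is named beside them.

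Peaks were intersected (at least 1 bp) with GENCODE vM1 protein-coding genes in NCBIM37 (mm9), the build of the lists. A start site was the 5′ end of the gene, and cover was summed within 50 kb on each side. CpG islands (27075) were stretches of over 200 bp found by scoring 17 for each CG and -1 for other bases. G and C made up 50% or more of them, and the ratio of observed to expected CG exceeded 0.6. Interval tools gave 0 disagreements in 6050 checks on simulated lists. Alternatives were other start sites, distances and windows, minimum widths of 2000 and 5000 bp, joining of peaks up to 10000 bp apart, islands of at least 500 bp, and other gene backgrounds. The members and gene lists were chosen with earlier results of these data known. All members were named, other genes by list order or most alike cover, and genes sharing a residual peak with a member. Other neighbours of Neurod2 and Neurod4, and the genes Eomes, Cbfa2t3 and Tbr1, were named after their values were seen. In all, 14 of 16 other neural bHLH genes matched a protein-coding gene. Python 3.11.15, numpy 2.4.6, pandas 2.3.3, scipy 1.17.1 and pysam 0.24.0 were used. Some values are not reported here.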

Additional observations from a re-analysis of the deposited data

How the results depend on the processing

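Of 68 values recomputed under an alternative, 61 stayed within 1.5 times the value reported and 7 moved further. The numbers of members with a start site in a peak were 9 in K27R and 7 in EZHIP under every alternative tried, including RefSeq start sites, and 7 in K27M except with a distance of 5000 bp (8). Counting any annotated transcript start, allowing a distance or joining peaks can only add members, so these settings could not lower a count. The K27R count was already at its maximum, and its narrowest peak over a start site, 26.2 kb, exceeded every minimum width tried. Only the RefSeq start sites could have changed it. Such fixed values are among the 61 and say nothing about stability. A window of 10 kb lowered the median K27R cover from 96.6 kb to its ceiling of 20.001 kb. The median EZHIP cover within 50 kb was 8.6 kb, but the mean was 23.5 kb and the median over the 7 kept members 24.4 kb. Joining peaks up to 10000 bp apart lowered the median share of the K27R region covered by EZHIP peaks from 15.2 to 8.41% and the median ratio of K27M to EZHIP width from 2.30 to 1.25. The share of 15.2% was that of Atoh7. Its K27R peak widened from 36.8 to 66.6 kb on joining, while its EZHIP peak stayed at 5.6 kb. Counting only islands of at least 500 bp left 12 in K27M and 12 in EZHIP peaks. Other causes were not tested, except that the window and the island length limit the values by construction. No paired analysis was possible because each group had 1 library. The depth of the libraries is unknown, so that a start site without a peak may carry H3K27me3 below the limit of the caller.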
